A study of Mus musculus with 3 samples.

Results

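The retained-intron transcripts of apoptotic bodies (ABs) from bone marrow macrophages (BMM-ABs), preosteoclasts (pOC-ABs) and mature osteoclasts (mOC-ABs) were examined. A retained-intron transcript is an alternative product of a coding gene in which sequence that the coding transcripts splice out stays in the RNA. The members were the rows of the mRNA expression table with the GENCODE M21 transcript type retained_intron, in genes that also listed a protein_coding row and had 50 or more reads in each library. They were 13746 rows in 5386 genes, out of 56651 rows in the table and 9013 genes with a protein_coding row and the same read minimum. The table held 14921 retained-intron rows in all, of which 184 lay in genes with no protein_coding row and 991, in 635 genes, fell under the read minimum. The value followed was the retained-intron share, the percentage of all reads of a gene that were counted on its retained-intron rows.

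There was 1 library of each AB, from 11-week-old male C57BL/6 mice. BMMs were obtained with M-CSF at 50 ng/mL for 72 h, and pOCs and mOCs received RANKL at 100 ng/mL with M-CSF at 30 ng/mL for 24 h and for 72 h or longer. Per the labels, all cells including the BMMs were then given 500 μM alendronate for 12 h to release ABs, whereas the methods of the study name staurosporine and a later time for mOCs. The titles name cells and the design text ABs, and the number of mice behind a library is not given in the sources used here. Without replicates no difference could be set against a spread between samples, so each comparison is between libraries and the intervals cover counting error only. The comparisons were pOC-ABs with BMM-ABs (G1), mOC-ABs with BMM-ABs (G2) and mOC-ABs with pOC-ABs (G3), and every pair of them shares a library. Where 3 values follow each other without a name, they stand for the BMM, pOC and mOC libraries in that order.

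Introns are normally removed before an mRNA leaves the nucleus. Transcripts that keep an intron are often held in the nucleus, where some are spliced later on demand, and those that reach the cytoplasm tend to meet a premature stop codon and to be degraded by nonsense-mediated decay. Retained introns are typically short, and genes of the splicing machinery, such as the CLK kinases, are known to control their own output in this way.

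The introns themselves are shown first, because several of the rows with large changes between libraries, such as those of Pxn, Golga2, Mrpl38 and Hps3, have few bases outside coding exons beyond these letters. Of the 53 genes named under a fixed rule, the introns of at most 300 bases inside the coding region are printed for 8, taken by size of the change of share among the genes that have such an intron, and those of Clk1 and Clk4 were added after their values had been seen. The sequences come from the GENCODE M21 transcripts on GRCm38, read 5′ to 3′ along the gene with 8 exon bases on each side, and the capitals mark the first 2 and last 2 bases of the intron. Pxn encodes paxillin, an adaptor of focal adhesions, and its intron lies at chr5:115545509-115545603 on the plus strand (intron 4 of 11). Golga2 encodes the Golgi matrix protein GM130 (chr2:32299126-32299203 on the plus strand, intron 11 of 26). Mrpl38 encodes a protein of the mitochondrial ribosome (chr11:116138622-116138710 on the minus strand, intron 1 of 8). Hps3 encodes a subunit of a complex that builds lysosome-related organelles (chr3:20029046-20029146 on the minus strand, intron 3 of 16). Shisa5 encodes a membrane protein of the endoplasmic reticulum linked to apoptosis (chr9:109056094-109056286 on the plus strand, intron 4 of 5). Hdac6 encodes a cytoplasmic deacetylase of tubulin (chrX:7939533-7939605 on the minus strand, intron 13 of 28).
Pxn: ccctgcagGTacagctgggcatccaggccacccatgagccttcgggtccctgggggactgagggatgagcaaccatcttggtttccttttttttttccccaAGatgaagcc
Golga2: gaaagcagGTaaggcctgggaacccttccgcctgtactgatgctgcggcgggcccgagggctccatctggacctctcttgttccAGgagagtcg
Mrpl38: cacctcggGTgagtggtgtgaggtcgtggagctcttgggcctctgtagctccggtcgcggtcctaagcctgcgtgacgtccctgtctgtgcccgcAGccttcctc
Hps3: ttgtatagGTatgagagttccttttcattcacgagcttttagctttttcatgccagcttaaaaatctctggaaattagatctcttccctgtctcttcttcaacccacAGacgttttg
Shisa5: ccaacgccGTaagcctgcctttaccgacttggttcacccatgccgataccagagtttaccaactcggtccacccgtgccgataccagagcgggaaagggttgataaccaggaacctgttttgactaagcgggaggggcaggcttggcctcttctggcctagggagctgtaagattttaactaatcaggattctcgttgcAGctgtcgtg
Hdac6: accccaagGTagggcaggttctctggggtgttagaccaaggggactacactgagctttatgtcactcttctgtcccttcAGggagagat

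The remaining introns belong to Ankzf1, which acts in the quality control of stalled ribosomes (chr1:75194944-75195062 on the plus strand, intron 3 of 12), to Spag7 (chr11:70664477-70664577 on the minus strand, intron 5 of 6), and to the kinases of splicing factors Clk1 (chr1:58417180-58417266 on the minus strand, intron 6 of 12) and Clk4 (chr11:51275579-51275769 on the plus strand, intron 7 of 12). The Clk1 intron was poor in G and C (27.6%), and the Golga2 intron was rich in them (64.1%).
Ankzf1: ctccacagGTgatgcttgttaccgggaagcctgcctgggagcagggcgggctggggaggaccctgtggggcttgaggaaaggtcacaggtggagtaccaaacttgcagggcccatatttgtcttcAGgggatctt
Spag7: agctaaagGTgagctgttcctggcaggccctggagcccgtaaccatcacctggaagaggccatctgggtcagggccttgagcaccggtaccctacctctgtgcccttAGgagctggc
Clk1: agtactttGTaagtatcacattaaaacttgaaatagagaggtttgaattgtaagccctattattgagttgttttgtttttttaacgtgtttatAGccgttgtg
Clk4: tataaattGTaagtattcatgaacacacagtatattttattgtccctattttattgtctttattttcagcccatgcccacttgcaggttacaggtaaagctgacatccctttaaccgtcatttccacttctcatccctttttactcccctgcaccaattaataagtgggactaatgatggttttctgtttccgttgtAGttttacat

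All 10 printed introns open with GT and close with AG. Translated on from the upstream exon, 9 of the 10 contained an in-frame stop codon, and the Ankzf1 intron did not.

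The same features held for the retained introns at large. The member genes had 84425 introns in their coding transcripts, of which 5702 (6.75%) lay wholly inside an exon of a retained-intron row. These held introns had a median length of 280 bases, against 1427 bases for the other introns of the same genes. A length of at most 300 bases was found in 52.1% of the held introns and in 16.8% of the others. Among 2510 genes with introns of both kinds, the held ones were shorter by median in 2030 (80.9%). In transcripts with at least 3 introns, 5.69% of first, 6.98% of middle and 5.59% of last introns were held, so position separated them little. The ends were GT-AG in 98.1%, GC-AG in 1.21% and AT-AC in 9 of the held introns. Of 5247 that could be read in frame, 89.3% contained a stop codon and 2.71% had neither a stop nor a shift of the frame. These are properties of the annotation, which lists the rows whether or not they were expressed.

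**Figure D1:**
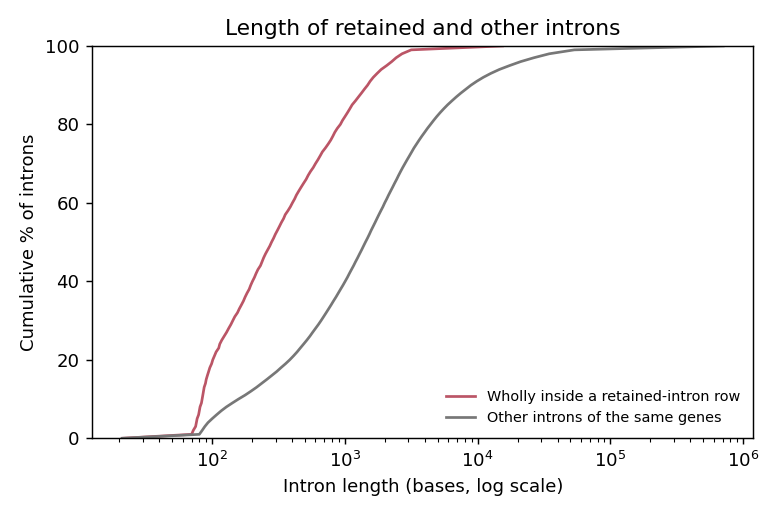
Length of introns on a log axis in bases against the cumulative percentage of introns, for the 5702 introns held by a retained-intron row and the other introns of the same genes. The curve of held introns lies to the left, with medians of 280 and 1427 bases.

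Not every member row held a whole intron. There were 4228 rows (30.8%) that did, and 9461 (68.8%) that held none but had bases outside the exons of coding transcripts. Such bases can lie in part of an intron, as in a prolonged exon, or beyond the ends of the coding transcripts. Another 57 rows had no base outside those exons. The median row was 835 bases long with 43.0% of its length outside those exons, while the median protein_coding row of the same genes was 2102 bases long. A gene had 2 member rows by median, 1925 genes had 1 and the most was 15. In 1733 genes with 2 or more member rows and at least 20 retained-intron reads in each library, the same row led in all 3 libraries in 1079 (62.3%). The rows were seen widely, with at least 1 read on 99.1, 97.4 and 97.1% of them. All 5386 genes had a retained-intron read in at least 1 library.

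The retained-intron share was highest in BMM-ABs and lowest in mOC-ABs. Over all member genes, the rows held 466268 of 4958160 reads in BMM-ABs, or 9.40% (95% exact binomial interval 9.38 to 9.43%). In pOC-ABs they held 304494 of 3808604 reads, or 7.99% (7.97 to 8.02%). In mOC-ABs they held 291148 of 4170111 reads, or 6.98% (6.96 to 7.01%). The median gene followed the same order, at 6.17, 4.97 and 4.07%, with quartiles of 2.11 and 16.3%, 1.69 and 13.8%, and 1.39 and 11.5%. Genes with a share of 20% or more numbered 1123, 938 and 781 in this order of libraries, and genes with 50% or more numbered 270, 233 and 182. Most of the distribution was low, and 1988 genes (36.9%) stayed under 5% in all 3 libraries. The 129 genes just inside the read minimum (50 to 59 reads in their lowest library) had medians of 9.26, 8.20 and 6.56%, and the 109 just outside it (40 to 49 reads) had 13.3, 14.0 and 9.30%.

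**Figure D2:**
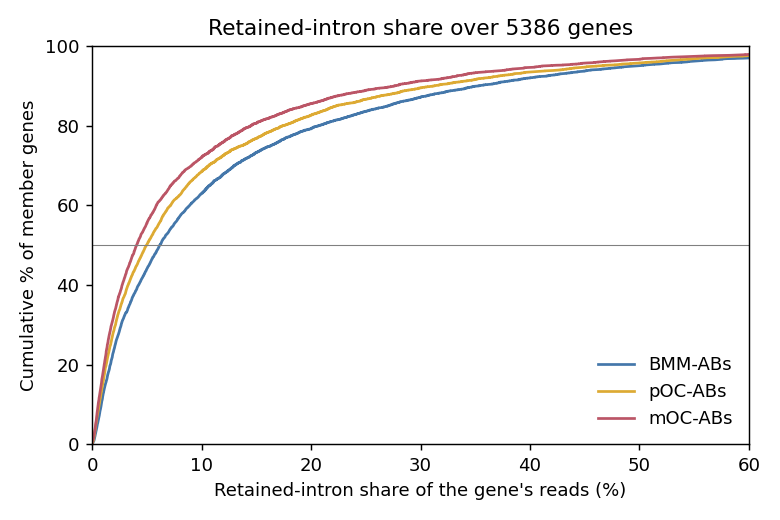
Retained-intron share of each gene in percent (drawn up to 60%) against the cumulative percentage of the 5386 member genes, with 1 line per library and a grey line at the median. The mOC-AB line lies to the left of the pOC-AB line and the BMM-AB line to its right, with medians of 4.07, 4.97 and 6.17%.

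Gene by gene, a share was called shifted when it differed by at least 10 percentage points and the 95% exact intervals did not overlap. In G1, 14.5% of the genes were shifted, with 263 higher (4.88%) and 518 lower (9.62%) in pOC-ABs. In G2, 14.9% were shifted, with 196 higher (3.64%) and 604 lower (11.2%) in mOC-ABs. In G3, 12.3% were shifted, with 249 higher (4.62%) and 413 lower (7.67%) in mOC-ABs. Counting any difference, the share was lower in 3781 genes (70.2%) in G2, in 3324 (61.7%) in G1 and in 3171 (58.9%) in G3. The order BMM-ABs, pOC-ABs, mOC-ABs from high to low was the most frequent of the 6 possible orders, with 1541 genes (28.6%), and its reverse was the rarest, with 428 genes (7.95%). At least 1 comparison shifted 1240 genes (23.0%). Taken row by row, the share of a single member row was shifted less often than that of any row of genes with 2 or more rows. A row that holds under 10% of the reads of its gene cannot be called lower. In the median gene, all member rows together held 6.17% in BMM-ABs. The protein_coding rows, which are part of all rows, were shifted in either direction in 23.0, 22.8 and 22.9% from G1 to G3. The 2 rates are therefore not on an equal footing. In G1, 2.42% of member rows were higher and 3.94% lower, against 7.52 and 7.49% of all 45132 rows. In G2 these were 1.79 and 4.31%, against 7.47 and 7.29%. In G3 they were 2.20 and 3.38%, against 7.39 and 7.30%. All rows moved about evenly in both directions. The rows of a gene together hold all of its reads, so a rise in one requires a fall in others. That evenness is therefore no measure for the direction of the member rows, which are among these rows. Member rows moved down more often than up.

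Other non-coding products of coding genes served as the background. Rows of the type nonsense_mediated_decay, annotated as carrying a premature stop, held 10.4, 9.43 and 9.77% of the reads of their 2221 genes. Their shares were shifted more often than those of retained introns but more evenly, with 9.46% of genes higher and 11.7% lower in G2. Rows of the type processed_transcript held 4.34, 3.96 and 4.03% in 3292 genes, with 2.58% of genes higher and 3.68% lower in G2. Of the shifted genes in G2, 75.5% were lower for retained introns, 55.2% for nonsense-mediated decay and 58.7% for processed transcripts. These genes overlap in part and the libraries are the same, so the figures are given side by side without a test.

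**Figure D3:**
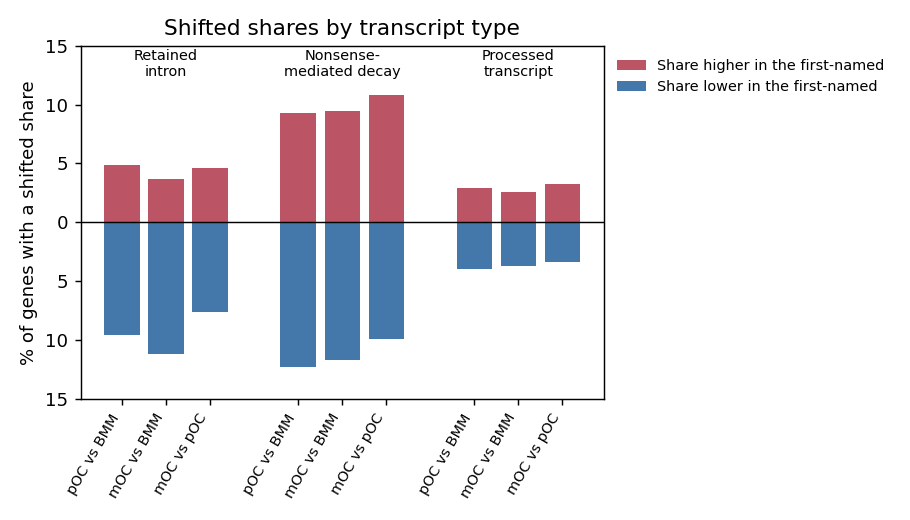
Percentage of genes with a shifted share, higher (up, red) or lower (down, blue) in the first-named AB, for 3 transcript types and 3 comparisons. In mOC-ABs against BMM-ABs, retained introns had 3.64% of genes higher and 11.2% lower, and nonsense-mediated decay had 9.46 and 11.7%.

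The reads of single rows moved the same way. Levels of rows were compared as reads per 1000000 mRNA reads (RPM), and 7278 of the 13746 member rows had at least 20 reads in the 3 libraries together. In G2, 39.4% of these were more than 2-fold lower and 9.00% more than 2-fold higher, against 25.1 and 13.0% of all 34531 rows with as many reads. In G1 the percentages were 31.7% lower and 11.9% higher, against 21.8 and 14.5% of all rows. In G3 they were 27.3% lower and 15.7% higher, against 20.5 and 15.3%. From G1 to G3 the member rows had a median log2 ratio of -0.42, -0.69 and -0.23, while that of protein_coding rows was -0.02, -0.07 and -0.05. Rows of the other non-coding types also went down more often than up. From G1 to G3, 30.7, 30.5 and 25.8% of nonsense_mediated_decay rows were more than 2-fold lower and 19.3, 18.5 and 24.3% higher. For processed_transcript rows these were 25.4, 30.9 and 23.5% lower and 15.5, 14.9 and 17.4% higher. In G1 the nonsense_mediated_decay rows were thus lower nearly as often as the member rows. The totals of the member genes hardly moved, with a median log2 ratio of -0.06, -0.07 and -0.02. Of the 604 genes with a lower share in G2, 45 (7.45%) had a total that differed more than 2-fold, against 6.24% of all member genes.

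The direction was most one-sided in rows that lay largely outside coding exons. Among rows with 75 to 100% of their length outside coding exons, 51.5% were more than 2-fold lower in G2 and 2.94% more than 2-fold higher, with a median log2 ratio of -1.02. Among rows with under 10% outside, 28.2% were lower and 17.7% higher, with a median of -0.16. In G1 the percentage lower was nearly the same in these classes, at 30.8% with 75 to 100% outside and 30.4% with under 10%. Only the percentage higher differed clearly there, at 7.79 and 17.5%, and the medians were -0.48 and -0.30. In G3 the rows with under 10% outside were 22.5% lower and 23.4% higher, with a median of 0.06, while those with 75 to 100% outside were 34.5% lower and 8.30% higher, with a median of -0.55. The rows with under 10% outside, which share nearly all of their sequence with coding exons, made the larger swings. In G2, 13.0% of them differed more than 10-fold, against 3.38% of the rows with 75 to 100% outside. When only the 5744 rows with at least 50% of their length outside coding exons were counted, in 3539 genes, the pooled share was 4.94, 4.08 and 2.99%. In G2 that share was lower in 76.9% of the genes, and 42 were shifted higher and 221 lower.

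**Figure D4:**
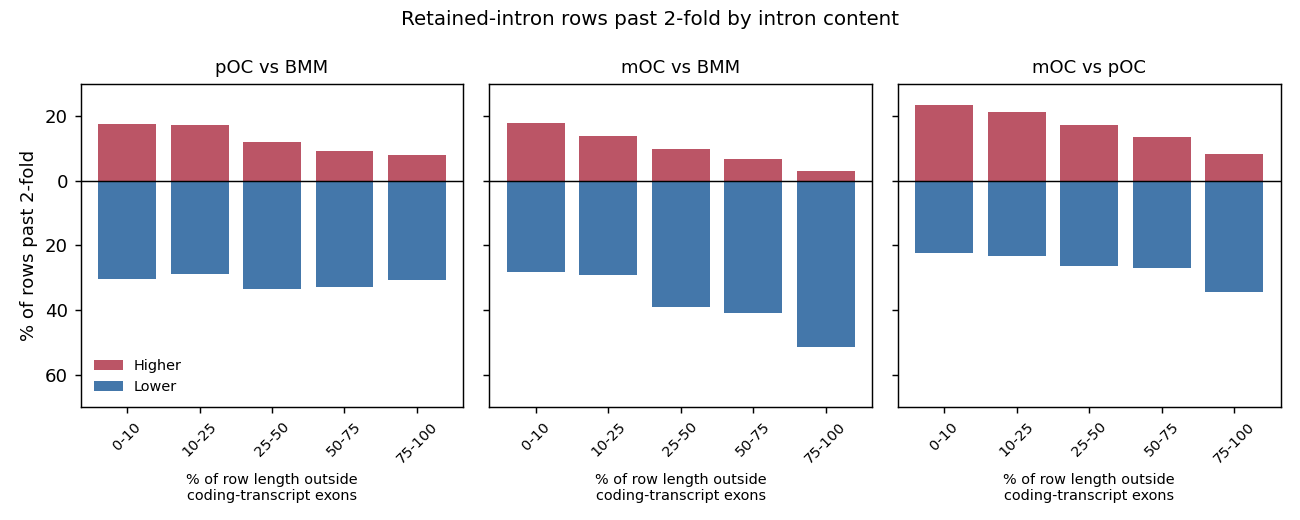
Percentage of retained-intron rows more than 2-fold higher (up, red) or lower (down, blue) in the first-named AB, by the percentage of the row's length outside the exons of coding transcripts. From the left to the right class, the rows higher in mOC-ABs than in BMM-ABs go from 17.7 to 2.94% and the rows lower from 28.2 to 51.5%.

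Among the genes known for a regulated retained intron, those of the CLK family had clear differences. In Clk1, retained-intron rows held 254 of 521, 92 of 409 and 57 of 307 reads, shares of 48.8, 22.5 and 18.6%. The difference was -26.3 percentage points in G1 (95% Newcombe interval -32.0 to -20.2) and -30.2 points in G2 (-36.0 to -23.8). BMM-ABs stood apart, while the intervals of the other libraries overlapped. One row of 3191 bases with 3 whole introns and 69.4% of its length outside coding exons (ENSMUST00000129577) accounted for 175, 37 and 18 of these reads, and it covers the 5′ part of the gene.

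Clk2 had shares of 57.7, 29.9 and 35.6%, from 510 of 884, 159 of 531 and 171 of 481 reads. Clk4 had 38.4, 19.6 and 18%, from 117 of 305, 38 of 194 and 30 of 167 reads. The row with the most of them held 5 coding-transcript introns, some of which overlap each other. In all 3 CLK genes BMM-ABs had the highest share, and both G1 and G2 were called.

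Further genes of that list moved less. Ogt, the O-GlcNAc transferase, had shares of 26.5, 17.2 and 18.9%, and its difference in G1 of -9.27 points (-12.3 to -6.17) fell short of 10 points. Mat2a, which makes S-adenosylmethionine, had 17.2, 12.0 and 9.29%. Tardbp had 2.18, 5.57 and 5.25%, with BMM-ABs the lowest. Nxf1, an mRNA export receptor, had 1.97, 2.03 and 1.15%, and the helicase Ddx5 and lamin B1 (Lmnb1) stayed under 1% in every library. Over the list, all 10 genes were measured, and in each of G1 and G2 0 were shifted higher and 4 lower, the 3 CLK genes among them. Over all member genes the shares were 4.88% higher and 9.62% lower in G1, and 3.64 and 11.2% in G2. The list is short and was chosen with earlier results known. Its median share was 21.8, 14.6 and 13.6%.

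Larger differences occurred in single genes. Exons of 28 of the 53 named genes overlap an exon of another gene, among them Golga2, Hps3, Ankzf1, Clk4, Rnf181, Rpl15, Srsf4 and Dgcr8, and because no strand setting is stated the reads of such partners cannot be told apart. The way in which reads common to near-identical rows of a gene were divided is not given in the sources used here either. In Golga2 the share was 77.2% (699 of 905 reads), 1.23% (7 of 571) and 26.5% (149 of 562). The row with the printed 78-base intron had 688, 0 and 141 reads and only 2.62% of its length outside coding exons. In Mrpl38 the share was 99.8, 24.6 and 41.1%, from 585 of 586, 109 of 443 and 173 of 421 reads. Its protein_coding row had 1, 334 and 248 reads, so that BMM-ABs and the other libraries exchanged the leading row. Shisa5 had 65.3, 50.6 and 0.975%, and its main row had 601, 203 and 1 reads. Hps3 had 84.3, 54.7 and 19.8%, Ankzf1 73.8, 27.3 and 12.1%, and Spag7 61.9, 11.7 and 3.11%. In these 4 genes each library had a lower share than the one before it in the order of differentiation.

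Tdp1, a repair enzyme for topoisomerase adducts on DNA, had 71.4, 42.2 and 3.78%, a difference of -67.6 points in G2 (-71.2 to -63.6). Its main retained-intron row had 57.7% of its length outside coding exons and 428, 150 and 4 reads. Rnf181, an E3 ubiquitin ligase, had 69.1, 10.7 and 11.6%. Its leading retained-intron row is 1 unspliced exon with 321, 29 and 23 reads. It holds 5 annotated introns, some of which are overlapping alternatives of each other. That row has 42.3% of its length outside coding exons, close to the median member row.

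Other genes had their highest share in pOC-ABs. In Pxn, retained-intron rows held 259 of 1905 (13.6%), 1452 of 1767 (82.2%) and 82 of 1515 reads (5.41%). The row with the printed 95-base intron had 0, 1370 and 0 reads and 95 of its 3761 bases outside coding exons, and the leading coding row had 1211, 71 and 1004. A count of 3 reads would be 0.330 RPM in BMM-ABs and 0.389 RPM in mOC-ABs. Rpl15, a ribosomal protein, had shares of 11.0, 79.9 and 29.6%, from 59 of 538, 1349 of 1689 and 525 of 1773 reads on 1 retained-intron row. That row held no whole intron and had 13.5% of its length outside coding exons. Ly6e had 28.5, 71.8 and 13.4%, and Dgcr8, a partner of Drosha in microRNA processing, had 17.7, 74.5 and 14.0%. Rbm38 (22.1, 79.6 and 19.4%), Gtpbp3 (17.2, 60.4 and 4.46%), Clptm1 (33.1, 98.4 and 61.1%) and Triobp (22.7, 84.4 and 47.6%) were also highest in pOC-ABs.

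The genes highest in mOC-ABs were fewer among the shifted ones in G2 but as wide in range. Srsf4, an SR splicing factor, had shares of 16.4, 15.1 and 77.5%, from 155 of 946, 74 of 490 and 502 of 648 reads on its 1 retained-intron row. The G2 difference was 61.1 points (56.9 to 64.9). Hdac6 had 27.6, 12.6 and 75.6%, and the row that holds the printed intron and one other had 73, 5 and 230 reads. Vac14, a scaffold of the PIKfyve lipid kinase, was higher at each step with 6.23, 32.1 and 59.5%, as did Timm44, of the mitochondrial import motor, with 22.7, 58.5 and 72.0%. Krr1, a factor of ribosome assembly, had 2.69, 6.36 and 50.9%. The leading retained-intron rows of Vac14 and Krr1 in mOC-ABs had only 8.29 and 2.23% of their length outside coding exons. Cops8 had 36.1, 14.6 and 72.2%, and Trmt2a had 66.7, 26.3 and 75.9%.

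Fkbp3, Igf2bp2 and Arhgap30 had their lowest share in pOC-ABs. Igf2bp2, an mRNA-binding protein, had 346 of 346, 95 of 381 and 257 of 257 reads on retained-intron rows. Its leading retained-intron row had only 8 bases outside coding exons. Fkbp3 had 77.9, 12.2 and 52.7%, while its total was 31.3, 97.6 and 65.8 RPM. Arhgap30, a GTPase-activating protein, had 96.9, 61.8 and 94.2%. Its leading retained-intron row in BMM-ABs had 10.4% of its length outside coding exons.

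**Figure D5:**
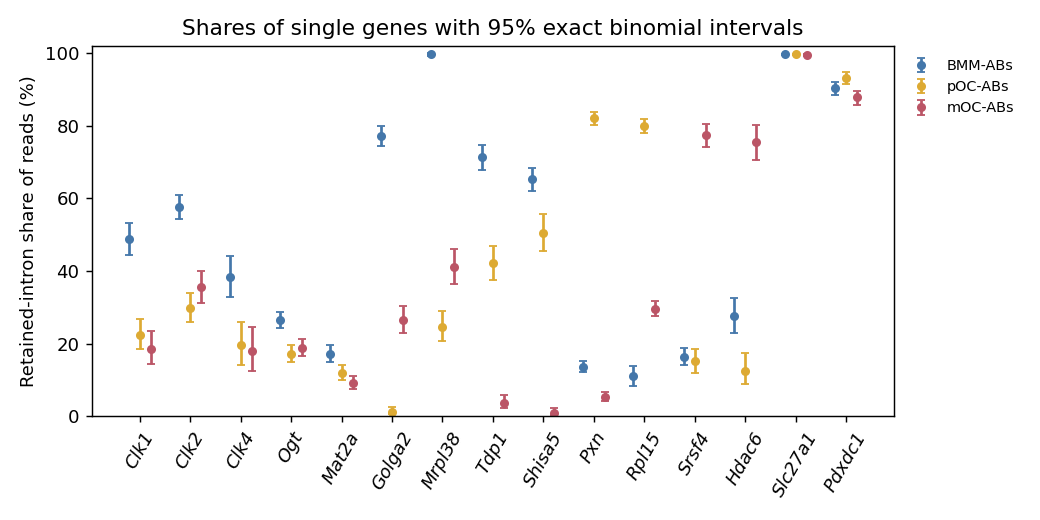
Retained-intron share in percent of 15 named genes in each library (points) with 95% exact binomial intervals (bars). Clk1, Clk2 and Clk4 are highest in BMM-ABs, Pxn and Rpl15 in pOC-ABs, Srsf4 and Hdac6 in mOC-ABs, and Slc27a1 is above 99% in each.

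In 93 genes the retained-intron rows held 50% or more of the reads in all 3 libraries. Slc27a1, a fatty acid transporter, had 99.7, 99.8 and 99.6%, with 3916 of 3929, 2477 of 2482 and 3255 of 3269 reads. Its leading retained-intron row (3451, 2273 and 3077 reads) covers the 3′ part of the gene. Pdxdc1 had 90.4, 93.3 and 87.8%, Spout1 95, 92.5 and 95.6%, Pan2, a deadenylase, 79.2, 83.2 and 79.8%, and the iron carrier Slc25a37 83.4, 81.6 and 85.7%. None of these 5 was shifted in any comparison. Arhgap45 had 87.8, 83.3 and 72.9% and was called lower in G2, and its leading retained-intron row had 2.80% of its length outside coding exons. Taf1d, a subunit of the RNA polymerase I factor SL1, had 93.9, 98.0 and 93.3%, and its leading row (3982, 6731 and 2914 reads) contains 6 small RNA genes, so reads from those cannot be told apart from reads of the host. Lilrb4a, an inhibitory receptor of myeloid cells, had shares of 85.6, 79.1 and 76.1%, a difference in G2 of -9.43 points (-14.0 to -5.31) that fell just short of the limit, while its total was 247, 114 and 54.4 RPM.

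The genes with the most retained-intron reads were of both kinds, and 6 of the 10 had a share of at least 50% in every library. Eef1a1, an elongation factor of translation, had 9000, 4350 and 9499 retained-intron reads, yet shares of only 9.69, 4.78 and 8.46%. The glycolytic enzymes Aldoa (8.90, 9.21 and 7.62%) and Pkm (1.68, 11.2 and 9.26%) were not shifted, though Pkm had 902 such reads in BMM-ABs against 4341 and 4296. Tkt, the transketolase, had 79.4, 63.6 and 74.1%, Psat1 50.3, 51.7 and 54.5%, and Eif4g1 37.3, 44.7 and 32.7%. The 10 genes with the most such reads held 9.46% of all retained-intron reads, and the top 100 held 28.4%. Across genes the share was lower where the level was higher, with medians in BMM-ABs of 9.57% in the lowest quartile group of mean RPM and 3.38% in the highest.

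By gene group, the median share was lower in mOC-ABs than in BMM-ABs in 16 of the 17 lists. The core spliceosome proteins had a median of 6.64, 4.50 and 3.17% over 24 measured genes, with 0 shifted higher and 4 lower in G2. The hnRNP proteins had 4.10, 2.65 and 1.65% (15 genes, 1 higher and 2 lower in G2). The SR proteins had 19.2, 22.4 and 13.4% (9 genes, 2 higher and 3 lower). Cytosolic ribosomal proteins had 11.3, 7.77 and 8.82% (60 genes, 6 higher and 5 lower), oxidative phosphorylation subunits 5.84, 4.11 and 3.97% (45 genes, 1 higher and 4 lower) and proteasome subunits 6.85, 3.70 and 4.69% (30 genes, 1 higher and 3 lower). Hosts of small nucleolar RNAs had 6.49, 5.55 and 4.63% (138 genes, 8 higher and 16 lower). Glycolytic enzymes were the exception, with 4.52, 7.33 and 4.84% (12 genes, 0 shifted in G2), but the median of their differences in G2 was -1.35 points, and the number of lists with a lower median was 17 with FPKM in place of reads and 15 with a minimum of 200 reads. Over all member genes, 3.64% were higher and 11.2% lower in that comparison.

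The lists of the cell types under study were short in members. Of 23 osteoclast genes 7 were measured, with medians of 7.0, 8.55 and 6.81%, and of 22 macrophage genes 4 were measured, with 7.11, 9.89 and 4.61%, and 0 genes of either list were shifted in G2. Nonsense-mediated decay and exon junction genes had 8.0, 5.01 and 2.91% over 7 genes, aminoacyl-tRNA synthetases 4.79, 1.87 and 1.79% over 17, and V-ATPase subunits 3.57, 3.72 and 3.33% over 12. Interferon-stimulated genes had 6.57, 6.08 and 2.44% over 11, genes of the integrated stress response 4.05, 5.76 and 2.63% over 6, and caspases with the BCL2 family 5.35, 4.49 and 1.30% over 9.

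Some other measures moved with the share. Intronic rows of the NONCODE catalogue in the lncRNA table had the same order, with 7115, 4599 and 3267 RPM over 4497 rows. Intergenic rows of that catalogue had 23501, 19429 and 16690. Overlap of these rows with the introns of the member genes was not examined. The lncRNA table as a whole did not follow the order of the share, with 3634682, 4478015 and 3851365 reads, the fewest in BMM-ABs. The nuclear lncRNAs Malat1 (92.0, 184 and 154 RPM) and Neat1 (157, 175 and 687 RPM) did not follow it either and were lowest in BMM-ABs. BMM-ABs were also the deepest library, with 9100082 mRNA reads against 7387317 and 7705592. The summed reads of 8 macrophage markers went from 5799 to 2777 and 1799 RPM. Lyz2, with the most reads of them in BMM-ABs, went from 3170 to 1334 and 411 RPM. Cd68 changed little (729, 649 and 656 RPM), and Csf1r was lowest in pOC-ABs (1085, 357 and 506 RPM). The sum of 10 osteoclast markers went from 345 to 581 and 1870 RPM, with Calcr not listed and Itgb3 at 6, 3 and 0 reads. Markers of lymphocytes, neutrophils, erythrocytes and stroma summed to at most 8 reads. In bulk ABs, fewer bodies of a kind and less RNA in each cannot be told apart, and the part of these measures in the share was not tested.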

How the data were processed

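Libraries were prepared from RNA purified on poly-T beads and sequenced paired-end. The submitters' processing notes name FastQC, HISAT2, StringTie and GRCm38, without versions. The authors deposited, for each Ensembl transcript of an mRNA table, the read count and FPKM in each library. The deposited FPKM scaled the reads of a row by its length and the sum of the mRNA table, and for rows over 200 reads it returned that total within 1% in 95.5 to 95.7% of cases. The lncRNA table gave read counts used beside the result and for 1 alternative scaling, and the circRNA table was not used. Transcript types, exons and gene names came from GENCODE M21 on GRCm38, where 56422 of the 56651 rows were found. The remaining 229 rows were left out of the shares.

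Reads were summed per gene, and the retained-intron share was set against all rows of the gene. Shares carry exact Clopper-Pearson intervals and differences Newcombe intervals, at 95%. With 1 library per group there was no test and no p-value. An intron was counted as held when it lay wholly inside an exon of a retained-intron row, with introns under 20 bases left out. Introns with different ends were counted separately, also where they overlap. The call of shifted shares was checked on simulated data. Genes were named by rule among those with 200 or more reads in each library. These were the 5 largest rises and falls among the shifted genes of each comparison, the 10 genes with the highest lowest share, the 10 with the most retained-intron reads, and the genes known for a retained intron. One gene named by this rule is not reported here. The members, lists and rules were chosen with earlier results of these data known. Alternatives covered the read minimum, FPKM, the rows and genes counted, the limits of the calls and the scaling. Python 3.11.15, pandas 2.3.3, numpy 2.4.6 and scipy 1.17.1 were used.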

Additional observations from a re-analysis of the deposited data

How the results depend on the processing

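No paired analysis was possible because there is 1 library per group, and no replicate could be left out. The order BMM-ABs, pOC-ABs, mOC-ABs from high to low held for the pooled share in 10 of 10 settings and for the median gene share in 9 of 9, and more genes were shifted lower than higher in each comparison in 12 of 12 settings, the reported one included. The levels and counts moved, since most alternatives count other rows or genes. The restriction by length outside coding exons and the removal of the 10 genes were chosen after seeing the data.

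With the values in that order, the pooled share was 9.46, 8.05 and 7.02% with a minimum of 20 reads, 8.96, 7.54 and 6.69% with a minimum of 200 reads, 14.4, 12.3 and 11.3% with FPKM in place of reads, 9.85, 8.34 and 7.29% with only protein_coding and retained_intron rows in the sum, 9.08, 7.26 and 6.38% with only rows that hold a whole intron, 8.96, 7.4 and 6.27% with genes with overlapping exons left out, 4.94, 4.08 and 2.99% with only rows with at least 50% of their length outside coding exons, 9.22, 7.67 and 6.79% with rows with a small RNA gene left out, 9.02, 7.55 and 6.52% with the 10 genes with the most retained-intron reads left out. The median gene share was 6.41, 5.26 and 4.29% with a minimum of 20 reads, 5.07, 3.93 and 3.25% with a minimum of 200 reads, 11.6, 9.80 and 8.59% with FPKM in place of reads, 6.72, 5.30 and 4.35% with only protein_coding and retained_intron rows in the sum, 6.06, 4.35 and 3.45% with only rows that hold a whole intron, 5.84, 4.63 and 3.79% with genes with overlapping exons left out, 3.65, 2.75 and 2.13% with only rows with at least 50% of their length outside coding exons, 6.10, 4.86 and 4.0% with rows with a small RNA gene left out. Shifted genes changed as follows. A minimum of 200 reads gave 130 higher and 355 lower in G1, 118 higher and 380 lower in G2, 175 higher and 246 lower in G3. With FPKM in place of reads, genes were called by the limit of 10 points alone, without intervals. That setting gave 465 higher and 770 lower in G1, 346 higher and 921 lower in G2, 406 higher and 718 lower in G3. With only rows that hold a whole intron there were 126 higher and 300 lower in G1, 91 higher and 334 lower in G2, 143 higher and 219 lower in G3. With genes with overlapping exons left out there were 145 higher and 282 lower in G1, 99 higher and 349 lower in G2, 129 higher and 220 lower in G3. With only rows with at least 50% of their length outside coding exons there were 66 higher and 157 lower in G1, 42 higher and 221 lower in G2, 60 higher and 143 lower in G3. A limit of 20 points gave 126 higher and 233 lower in G1, 83 higher and 284 lower in G2, 115 higher and 193 lower in G3. A limit of 5 points gave 352 higher and 789 lower in G1, 258 higher and 947 lower in G2, 344 higher and 603 lower in G3. No requirement on the intervals gave 311 higher and 581 lower in G1, 227 higher and 691 lower in G2, 290 higher and 509 lower in G3. With FPKM the genes known for a retained intron had a median share of 36.3, 26.6 and 21.9%. A pseudocount of 1 RPM gave, for rows more than 2-fold higher and lower, 6.66 and 18.9% in G1, 5.28 and 23.1% in G2, 8.19 and 14.1% in G3. Depth limits the rows, since 7278 of 13746 reached 20 reads in the 3 libraries together.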

Other observations

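The length of the held intron went with the share within the genes that had exactly 1. In 1167 such genes, counting only rows that hold a whole intron, the quartile group with the shortest introns (40 to 143 bases) had a median share of 1.91, 1.71 and 1.40% in the BMM, pOC and mOC libraries. The quartile group with the longest introns (1059 to 8856 bases) had 6.45, 4.54 and 3.10%. Longer introns add length to the row, and the shares were not divided by length. GC content of the held intron showed no such gradient, with medians in BMM-ABs of 2.64, 4.38, 3.52 and 2.64% from the lowest to the highest quartile group. Held introns with AT-AC ends, the mark of one class of introns removed by the minor spliceosome, were found in E2f6, Ift80, Nr2c2ap, Pole2, Prim1, Rnf123, Sms, Spc24 and Xpo7, and these genes were singled out after their ends had been read.

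Gene shares ranked alike in the 3 libraries, with a Spearman coefficient across the 5386 genes of 0.839 for the pair in G1, 0.828 in G2 and 0.835 in G3. Genes are not independent replicates, and the coefficients only describe these libraries, whose shares all depend on gene level (-0.250, -0.304 and -0.287 between share and RPM).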
